A study of Mus musculus with 6 samples.

Results

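Collagens are the triple-helical proteins that give tissue its framework, and the collagen genes of the mouse were followed here in grafts of the melanoma line B16F10 grown in the tongue. The members were all genes whose symbol matched a collagen chain name (Col, a type number, the letter a and a chain number), which gave 44 of the 55487 genes in the deposited table of read counts. Both groups were C57BL/6J mice, labelled wild type, that carried B16F10 cells under the tongue mucosa, and each group had 3 libraries from whole grafts freed of surrounding tissue. Mice of the inhibition group (LN-nociceptive nerve inhibition, LN standing for lymph node) had received AAV2/retro-Trpv1-hM4D(Gi)-mCherry in their cervical nodes 6 weeks earlier, and then 12 days of Deschloroclozapine, 2 doses a day. The other vector of the design, AAV2/retro-Trpv1-mCherry, lacks the hM4D(Gi) receptor. Control grafts are labelled vehicle-treated, whereas the design text gives all mice Deschloroclozapine, so it is unclear whether the controls received the ligand. The Trpv1 promoter directs the vector to nociceptive neurons whose fibres take it up in the nodes; no silencing of nerves was measured in these libraries, and ages were not given. Whether each library came from its own mouse is not stated either, and p-values therefore cover the spread between these samples alone, which may be technical.

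Each collagen chain is made as a procollagen in the endoplasmic reticulum, where prolines and lysines are hydroxylated and 3 chains wind into a helix. Fibrillar collagens (types I, II, III, V, XI, XXIV and XXVII) assemble into the tension-bearing fibres of connective tissue, type IV forms the sheet of basement membranes, type VI makes beaded microfilaments around cells, and FACIT collagens sit on the surface of fibrils. In a whole graft, tumour and stroma are read together: fibroblasts make most of the fibrillar and type VI chains, while endothelium, muscle, nerve sheath and epithelium also make basement membrane chains. In a bulk library, fewer cells of a type and less RNA per cell cannot be told apart.

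The 6 libraries held between 14477277 and 20972494 counts. No 2 libraries matched within counting noise, with a chi-square for each degree of freedom of at least 5.64 over all pairs. Control 1 stood lowest of the 6 for collagens, non-collagen fibroblast genes, muscle genes and melanocyte genes; the summed level of the last, in CPM (read counts scaled to library size), was 15891 CPM there and 22503 to 27354 CPM in the other 5 libraries. All 7 melanoma markers were abundant in every graft (343 to 10757 CPM per gene), as in the labelled line.

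Collagen transcripts made up 0.284%, 0.260% and 0.254% of all counts in inhibition grafts 1, 2 and 3, against 0.152%, 0.202% and 0.211% in control grafts 1, 2 and 3. The groups did not overlap, and control 1 was the lowest. Of the 44 members, 34 had enough counts to be tested and 10 did not. At an edgeR adjusted p under 0.05 over all 15666 genes, 0 collagens were higher and 0 lower, where 0.0383% of all genes tested (6 genes) were called. At an unadjusted p under 0.05, 15 of the 34 tested collagens (44.1%) were higher in the inhibition grafts and 0 lower, against 8.36% higher and 7.00% lower among all genes tested. DESeq2 called 10 collagens higher and 0 lower, against 2.20% of all genes higher and 1.17% lower, while limma-voom called 0, as it did for all genes, with 14 collagens at an unadjusted p under 0.05. All 3 inhibition libraries lay above all 3 controls for 16 tested collagens (47.1%) and below them for 1, against 10.2% and 11.0% of all genes tested. In all, 25 tested collagens had a positive and 9 a negative log2 fold change, against 51.0% positive and 49.0% negative among all genes tested. The median log2 fold change (inhibition over control) of the tested collagens was 0.34, beside 0.0049 for all genes.

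These counts depend on the grafts and on the fit. Without inhibition 3, edgeR called 3 of 34 tested collagens, Col1a1, Col1a2 and Col5a1, against 217 of all 15890 genes tested. Leaving out any of the other 5 libraries gave 0 collagens. With no filter on low counts edgeR called 11 of 44 collagens, against 1187 of all 28841 genes then tested. The collagen median was 0.21 without control 1, and the count at an unadjusted p under 0.05 was 10 without inhibition 1. When the fit held each graft's skeletal muscle level, 2 collagens had an unadjusted p under 0.05, Col5a1 and Col13a1. In that fit 188 of all 15666 genes tested were higher and 312 lower at that threshold. The muscle level was 7.16, 7.08 and 6.17 under inhibition and 4.82, 6.15 and 5.16 in controls (mean log2 CPM). It did not overlap between the groups, but inhibition 3 lay only just above control 2. Muscle level and group were confounded in part, and this fit can tell them apart only in part. The standard error of Col1a1 was 0.20 there, against 0.13 without the covariate. A single member, Col8a2, passed the filter on low counts through the inhibition libraries only; among the other 33 tested members 14 were higher at an unadjusted p under 0.05.

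**Figure D1:**
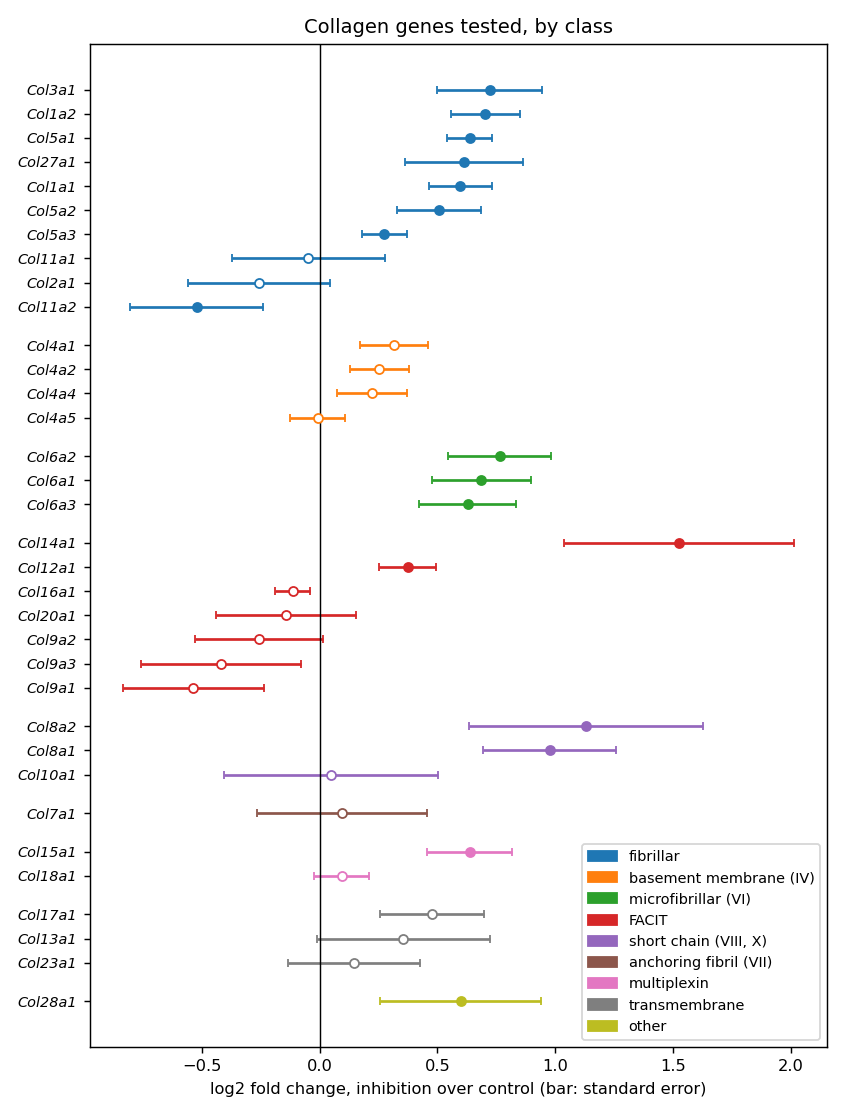
Log2 fold change of inhibition over control (horizontal axis) for the 34 tested collagen genes, grouped by class; bars are standard errors from edgeR, and filled points mark genes whose 3 inhibition libraries all lay above or all below the 3 controls. Types I, III, V, VI, VIII and XIV lie to the right of 0, as do 3 of the 4 type IV genes at 0.22 to 0.31 with open points, and the type IX genes and Col11a2 lie to the left.

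Per kilobase of exon, which allows genes of different length to be compared, Col3a1 led all collagens with a mean of 49.4 CPM per kilobase over the 6 libraries. Next came Col4a1 (41.7), Col4a2 (30.6), Col1a1 (29.1), Col1a2 (16.8), Col16a1 (16.1), Col5a2 (13.2), Col15a1 (9.99), Col6a1 (9.94) and Col5a3 (8.25), all in CPM per kilobase. The leading 5 are chains of interstitial fibres (types I and III) and of basement membrane (type IV). The order was not the same in both groups. Col3a1 and Col4a1 averaged 61.5 and 46.2 CPM per kilobase under inhibition, and 37.3 and 37.1 in controls. Col1a1 lay above Col4a2 under inhibition (35.1 and 33.3) and below it in controls (23.2 and 27.9), and Col1a2 above Col16a1 under inhibition (20.9 and 15.5) and below it in controls (12.8 and 16.8). The range over the 6 libraries of each of these 10 genes overlapped that of the next in this order.

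Among the fibrillar collagens, 7 of the 10 tested members had all inhibition libraries above all controls, and the same 7 had an unadjusted p under 0.05. The class median was 0.55, or 0.37 without control 1 and 0.27 with muscle level in the fit, and DESeq2 called 4 of its members higher. Over all genes tested, 10.2% had all inhibition libraries above all controls and 8.36% were higher at an unadjusted p under 0.05. DESeq2 called 2.20% of all genes higher. Col1a1, which encodes the alpha 1 chain of type I collagen, the main fibre of skin, tendon and scar, had 264, 228 and 199.7 CPM in the inhibition grafts, against 128, 156 and 173 CPM in the control grafts (log2 fold change 0.60 ± 0.13, edgeR adjusted p = 0.166). Its partner Col1a2, the alpha 2 chain, had 286, 269 and 223 CPM in the inhibition grafts, against 127, 175 and 176 CPM in the control grafts (log2 fold change 0.70 ± 0.15, edgeR adjusted p = 0.162). In both genes every inhibition graft stood above every control, with inhibition 3 nearest to the controls and control 1 farthest from the inhibition grafts. DESeq2 gave adjusted p of 0.00153 for Col1a1 and 1.58e-04 for Col1a2.

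Type III collagen, a homotrimer of Col3a1 that forms the fine fibres of soft and healing tissue, had the highest mean level per kilobase. Col3a1 had 675, 607 and 529.9 CPM in the inhibition grafts, against 247, 423 and 428 CPM in the control grafts (log2 fold change 0.72 ± 0.22, edgeR adjusted p = 0.235). The groups did not overlap, controls 2 and 3 were almost alike, and control 1 stood far below them. Type V collagen seeds fibrils and sets their diameter, and its alpha 1 chain Col5a1 had the smallest p of all collagens, with 90.2, 81.6 and 81.5 CPM in the inhibition grafts, against 47.4, 56.9 and 58.4 CPM in the control grafts (log2 fold change 0.64 ± 0.095, edgeR adjusted p = 0.0766). Means were 84.4 ± 4.99 CPM under inhibition and 54.2 ± 5.98 CPM in controls (SD, n = 3 each), and the groups were separated by more than their own spread. Col5a1 was also the 1 collagen past an edgeR adjusted p of 0.1, where 0.211% of all genes passed.

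The other type V chains had smaller fold changes. Col5a2 had 164, 154 and 129 CPM in the inhibition grafts, against 77.5, 121 and 115 CPM in the control grafts (log2 fold change 0.51 ± 0.18, edgeR adjusted p = 0.264), so that inhibition 3 lay only just above control 2. Col5a3, a chain found in a restricted set of tissues, had 57.7, 60.7 and 66.1 CPM in the inhibition grafts, against 45.3, 53.7 and 53.6 CPM in the control grafts (log2 fold change 0.27 ± 0.094, edgeR adjusted p = 0.235). Col27a1, a minor fibrillar collagen best known from cartilage, had 7.15, 7.64 and 9.10 CPM in the inhibition grafts, against 3.68, 7.03 and 4.98 CPM in the control grafts (log2 fold change 0.61 ± 0.25, edgeR adjusted p = 0.293), with control 2 close below the inhibition grafts. Without control 1 the log2 fold change of Col5a2 was 0.32. With muscle level in the fit it was 0.0045, against 0.30 for Col1a1, 0.29 for Col1a2, 0.21 for Col3a1 and 0.31 for Col27a1. Col24a1, another minor fibrillar chain, had 4 to 9 counts per library and was not tested.

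The type II and XI chains, the fibrillar collagens that make up cartilage fibres, had negative log2 fold changes. Col2a1, the main collagen of cartilage, ranged from 3.01 to 7.24 CPM under inhibition and from 5.37 to 7.09 CPM in controls (log2 fold change -0.26 ± 0.30, edgeR adjusted p = 0.707). Col11a1, a chain of the thin type XI fibrils within cartilage fibres, ranged from 1.47 to 2.67 CPM under inhibition and from 1.76 to 2.90 CPM in controls (log2 fold change -0.048 ± 0.33, edgeR adjusted p = 0.957). Col11a2, its partner, was the 1 collagen whose inhibition libraries all lay below the controls and is given in full after its values were seen. It had 3.08, 6.97 and 6.05 CPM in the inhibition grafts, against 8.87, 7.16 and 7.31 CPM in the control grafts (log2 fold change -0.52 ± 0.28, edgeR adjusted p = 0.404), with inhibition 2 and control 2 almost alike. Together with types IX and X, a grouping made after the values were seen, 6 of 7 tested genes had a negative log2 fold change (median -0.26) and 0 had an unadjusted p under 0.05. The tally depends on leaving out Col27a1, which is also known from cartilage and had a log2 fold change of 0.61. Of 7 chondrocyte markers 3 were tested, Cnmd was at 0 counts in every library, and Acan and Matn1 had at most 5 and 1 counts. The tested markers were Sox9, Matn3 and Hapln1, with log2 fold changes of 0.76, 0.19 and -1.12 (edgeR adjusted p = 0.312, 0.804 and 0.384). Sox9 had an unadjusted edgeR p of 0.0447. The list summed to 24.2, 19.1 and 17.4 CPM under inhibition and 28.9, 17.7 and 18.1 CPM in controls. Hapln1 gave 22.6 CPM of the sum in control 1.

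**Figure D2:**
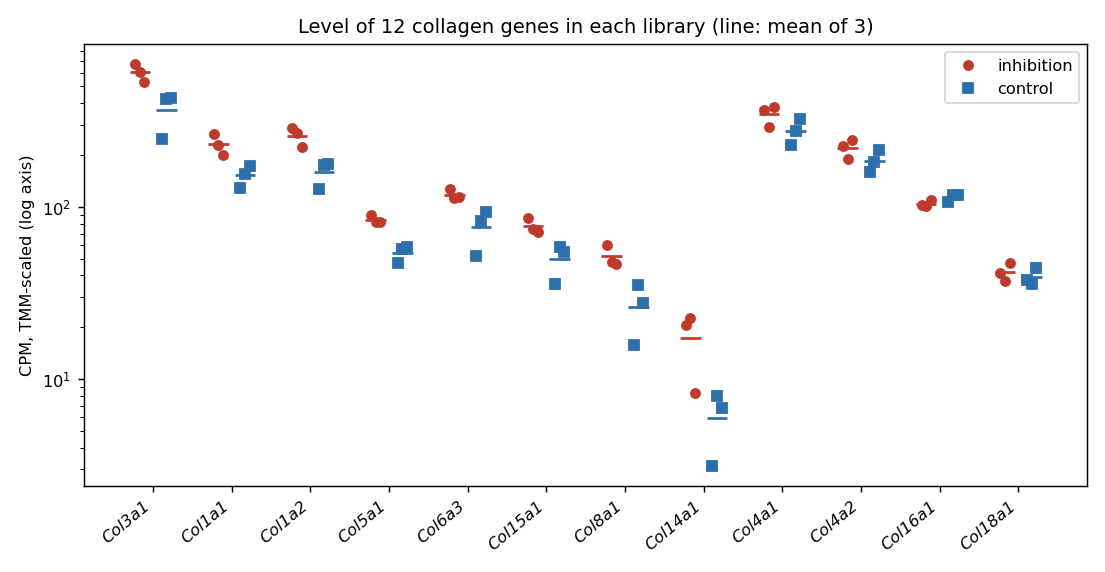
Level of 12 collagen genes in each library, in TMM-scaled CPM on a log axis; inhibition libraries are circles on the left of each pair, controls are squares on the right, in order of replicate number, and lines are means of 3. The groups are separate for the first 8 genes, from Col3a1 to Col14a1, and overlap for Col4a1, Col4a2, Col16a1 and Col18a1.

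Promoter windows of RefSeq on GRCm38.p6 are printed for members that lead the results, from 250 bases before to 50 after the transcription start and 5′ to 3′ on the gene's strand. Capitals mark CCAAT or its reverse complement ATTGG, a motif of many promoters. Col3a1 and Col5a1, with no capitals, hold neither in this window, and Col1a2 holds 1 of each. G and C make up 61.0% of the Col1a2 window and 75.0% of that of Col5a1, but 37.7% of that of Col3a1, where the median of all windows is 52.7%.
Col1a2 (chr6:4505368-4505667, plus strand): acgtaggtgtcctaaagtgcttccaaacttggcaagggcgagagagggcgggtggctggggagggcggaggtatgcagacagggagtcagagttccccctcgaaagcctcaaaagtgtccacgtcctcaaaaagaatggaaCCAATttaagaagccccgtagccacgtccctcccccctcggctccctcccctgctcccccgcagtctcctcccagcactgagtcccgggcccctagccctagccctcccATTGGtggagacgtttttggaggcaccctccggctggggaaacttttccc
Col3a1 (chr1:45311288-45311587, plus strand): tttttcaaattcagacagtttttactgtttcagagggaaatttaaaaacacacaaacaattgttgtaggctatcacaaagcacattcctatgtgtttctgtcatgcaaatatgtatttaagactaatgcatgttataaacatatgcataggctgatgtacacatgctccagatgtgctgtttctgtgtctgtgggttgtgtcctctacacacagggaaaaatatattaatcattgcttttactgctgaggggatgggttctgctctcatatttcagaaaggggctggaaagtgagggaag
Col5a1 (chr2:27886175-27886474, plus strand): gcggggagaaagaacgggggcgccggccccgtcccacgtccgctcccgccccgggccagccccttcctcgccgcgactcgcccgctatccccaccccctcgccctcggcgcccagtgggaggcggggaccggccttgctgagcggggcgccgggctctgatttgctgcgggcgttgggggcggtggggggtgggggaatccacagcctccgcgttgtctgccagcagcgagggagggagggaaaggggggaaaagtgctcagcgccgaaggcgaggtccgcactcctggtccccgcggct

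In 38 windows of 35 collagen genes, 13 (34.2%) held CCAAT on either strand, against 37.4% of all 32817 windows of the same length. GGGCGG or CCGCCC, the GC box, stood in 23 collagen windows (60.5%), against 35.6% of all windows. TATAAA or TTTATA stood in 5 collagen windows (13.2%, that of Col3a1 among them), against 13.6%. A match describes the letters of a window and measures no binding.

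Type VI collagen was higher at an unadjusted p under 0.05 in 3 of 3 tested chains (median 0.69), against 8.36% of all genes tested. Col6a1, Col6a2 and Col6a3 encode the 3 chains of the common heterotrimer. In each of them all inhibition libraries lay above all controls, as for 10.2% of all genes tested. Col6a1 had 61.2, 46.6 and 53.5 CPM in the inhibition grafts, against 23.2, 35.4 and 41.3 CPM in the control grafts (log2 fold change 0.69 ± 0.21, edgeR adjusted p = 0.227). Col6a2, the alpha 2 chain, had 56.1, 45.1 and 52.9 CPM in the inhibition grafts, against 20.6, 31.2 and 38.7 CPM in the control grafts (log2 fold change 0.76 ± 0.22, edgeR adjusted p = 0.220). Col6a3, the long chain that completes the trimer, had 127, 112 and 114 CPM in the inhibition grafts, against 51.9, 83.1 and 93.0 CPM in the control grafts (log2 fold change 0.63 ± 0.21, edgeR adjusted p = 0.249). Control 1 was the lowest library for all 3, and control 3 the closest to the inhibition grafts. All 3 ranked the libraries in the same order, so they do not count as 3 separate results. DESeq2 called all 3, with adjusted p of 0.0201, 0.00901 and 0.0206, where it called 2.20% of all genes higher. The log2 fold change of Col6a3 was 0.41 without control 1 and 0.32 with muscle level in the fit. The alternative chains Col6a4, Col6a5 and Col6a6 had 0 to 2 counts per library and were not tested.

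Basement membrane collagen was abundant, and its groups overlapped for all 4 tested genes. Col4a1 had 365, 292 and 378 CPM in the inhibition grafts, against 229.8, 277 and 325 CPM in the control grafts (log2 fold change 0.31 ± 0.14, edgeR adjusted p = 0.343). Col4a2, which joins it in the ubiquitous type IV trimer, had 227, 190.4 and 244 CPM in the inhibition grafts, against 159, 181 and 214 CPM in the control grafts (log2 fold change 0.25 ± 0.13, edgeR adjusted p = 0.376). For both, control 3 lay above inhibition 2. Col4a4, found in specialised membranes such as that of the kidney glomerulus, ranged from 26.2 to 31.3 CPM under inhibition and from 20.5 to 30.3 CPM in controls (log2 fold change 0.22 ± 0.15, edgeR adjusted p = 0.492). Col4a5, which joins Col4a4 in that membrane, ranged from 21.1 to 28.0 CPM under inhibition and from 23.7 to 26.0 CPM in controls (log2 fold change -0.0083 ± 0.12, edgeR adjusted p = 0.981). No type IV gene (0 of 4 tested) had an unadjusted p under 0.05 in edgeR, and DESeq2 called 0. The class median of 0.24 was 0.12 without control 1 and 0.38 without control 3. The log2 fold changes of Col4a1 and Col4a2 were 0.19 and 0.15 without control 1, and that of Col4a2 was 0.16 without inhibition 3.

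Type IV genes lie in head-to-head pairs. On GRCm38, Col4a1 (chromosome 8, 11198423 to 11312826) and Col4a2 (chromosome 8, 11312805 to 11449287) run in opposite directions and overlap by 22 bases at their starts; reads from that stretch could be given to either. Their promoter windows share 78 bases. Col4a1 holds ATTGG and Col4a2 holds CCAAT, once each, and both windows are rich in G and C (74.0% and 73.7%).
Col4a1 (chr8:11312777-11313076, minus strand): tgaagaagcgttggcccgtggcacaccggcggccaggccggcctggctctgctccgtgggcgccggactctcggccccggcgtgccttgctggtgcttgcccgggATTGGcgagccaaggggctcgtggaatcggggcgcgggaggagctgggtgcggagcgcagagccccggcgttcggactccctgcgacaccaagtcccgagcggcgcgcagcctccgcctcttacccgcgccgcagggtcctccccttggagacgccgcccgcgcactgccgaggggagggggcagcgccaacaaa
Col4a2 (chr8:11312555-11312854, plus strand): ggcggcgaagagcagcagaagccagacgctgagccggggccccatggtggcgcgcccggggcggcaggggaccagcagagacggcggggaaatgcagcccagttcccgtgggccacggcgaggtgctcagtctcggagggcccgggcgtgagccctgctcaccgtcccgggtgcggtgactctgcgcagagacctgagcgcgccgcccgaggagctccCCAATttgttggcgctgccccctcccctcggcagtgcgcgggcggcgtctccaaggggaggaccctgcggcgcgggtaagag

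The log2 ratio of Col4a1 to Col4a2 counts within a library was 0.69, 0.62 and 0.63 under inhibition and 0.53, 0.61 and 0.60 in controls. The mean difference was 0.064 (two-sided exact permutation p = 0.1, the smallest that 3 against 3 libraries allow; adjusted over 6 ratios 0.48). Without an overlap, inhibition 2 and control 2 were still almost alike. The pair Col4a4 and Col4a3 starts 71 bases apart on chromosome 1, yet Col4a4 had 447, 560 and 550 counts under inhibition and 339, 352 and 627 in controls, while Col4a3 had 4, 5 and 7 counts under inhibition and 3, 2 and 4 in controls. Col4a5 and Col4a6, 1308 bases apart on chromosome X, were as unequal, with 399, 490 and 443 counts of Col4a5 under inhibition and 410, 364 and 537 in controls, against 4, 16 and 2 counts of Col4a6 under inhibition and 7, 5 and 2 in controls. Col4a3 and Col4a6 were too low to test.

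The other 5 ratios overlapped between the groups. The log2 ratio of Col1a1 to Col1a2 counts averaged -0.17 ± 0.062 under inhibition and -0.060 ± 0.095 in controls (SD, n = 3 each; exact permutation p = 0.3). That of Col6a1 to Col6a2 averaged 0.063 ± 0.056 under inhibition and 0.15 ± 0.047 in controls (exact permutation p = 0.2). Between types, Col3a1 to Col1a1 gave 1.36, 1.41 and 1.41 under inhibition and 0.95, 1.44 and 1.30 in controls (exact permutation p = 0.4), with control 1 apart from the rest. Col4a1 to Col1a1 gave 0.47, 0.36 and 0.92 under inhibition and 0.85, 0.83 and 0.91 in controls (exact permutation p = 0.4), and here inhibition 3 stood with the controls. Col5a1 to Col1a1 differed by 0.043 (exact permutation p = 0.8). All 6 ratios had an adjusted p of 0.48 or, for Col5a1 to Col1a1, 0.8, in a design that cannot go below 0.1.

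Expressed as shares of the summed collagen level per kilobase, fibrillar chains were 48.3%, 49.8% and 43.8% under inhibition, against 40.6%, 44.1% and 42.5% in controls. The groups overlapped, since control 2 lay above inhibition 3. Basement membrane chains were 25.7%, 23.9% and 29.7% under inhibition and 31.7%, 28.0% and 31.1% in controls, again with an overlap. Type VI chains were 8.92%, 8.18% and 8.94% under inhibition and 6.35%, 7.49% and 8.21% in controls, where control 3 just exceeded inhibition 2. FACIT chains took 7.10% to 8.15% under inhibition and 9.56% to 12.1% in controls, without an overlap, and Col16a1 supplied most of them. These shares add to a whole, so a class can lose share without losing transcripts.

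**Figure D3:**
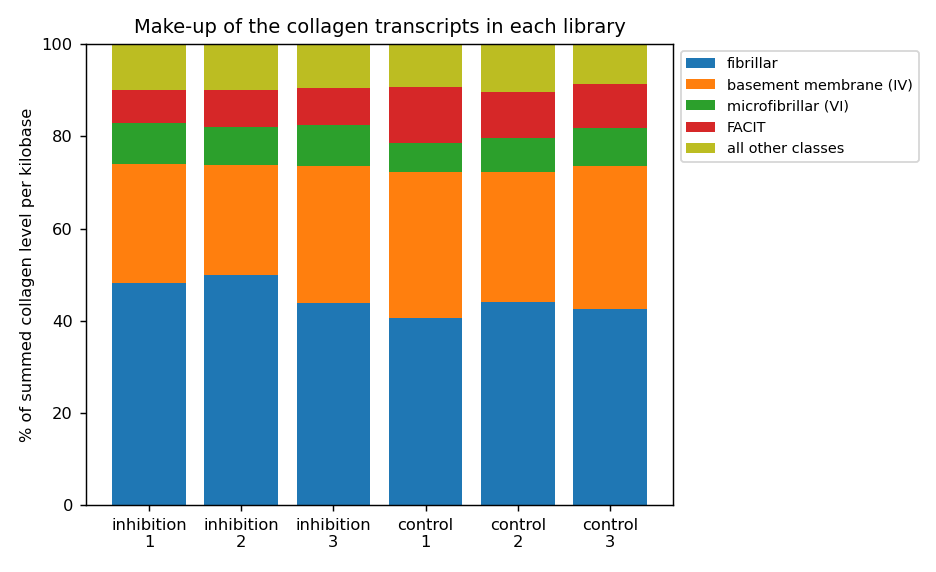
Share of each collagen class in the summed collagen level per kilobase (vertical axis, %), 1 bar per library, with the 3 inhibition libraries on the left and the 3 controls on the right. Fibrillar chains are the largest part of every bar, 43.8% to 49.8% under inhibition and 40.6% to 44.1% in controls, and the FACIT share is 7.10% to 8.15% under inhibition and 9.56% to 12.1% in controls.

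FACIT collagens were the least uniform class, with a median log2 fold change of -0.14 over 7 tested members, 2 of them positive. The median was -0.26 without inhibition 2 and, with muscle level in the fit, 0.014. Col14a1, which binds fibrils in skin and tendon and regulates their growth, had 20.7, 22.8 and 8.29 CPM in the inhibition grafts, against 3.14, 7.94 and 6.82 CPM in the control grafts (log2 fold change 1.52 ± 0.49, edgeR adjusted p = 0.247). Inhibition 1 and 2 were far above the rest, while inhibition 3 lay just over control 2. It had the largest log2 fold change of the tested collagens, and DESeq2 called it (adjusted p = 0.00391). With muscle level in the fit its log2 fold change was -0.027. Col12a1, a long FACIT chain of tendon, muscle and strained tissue, had 65.7, 57.0 and 63.1 CPM in the inhibition grafts, against 38.9, 52.4 and 52.0 CPM in the control grafts (log2 fold change 0.37 ± 0.12, edgeR adjusted p = 0.223), or a log2 fold change of 0.24 without control 1 and 0.19 with muscle level in the fit.

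The most abundant FACIT gene had no such difference. Col16a1, a chain found near fibrils and at cell surfaces, had 103, 101 and 110.1 CPM in the inhibition grafts, against 106, 117 and 117 CPM in the control grafts (log2 fold change -0.11 ± 0.073, edgeR adjusted p = 0.472). The type IX genes Col9a1, Col9a2 and Col9a3, partners of type II collagen in cartilage, had log2 fold changes of -0.54, -0.26 and -0.42, at levels of 1.67 to 4.76 CPM under inhibition and 1.95 to 4.598 CPM in controls, and the groups overlapped for each. Col20a1, a little-studied chain, ranged from 3.43 to 7.48 CPM under inhibition and from 5.23 to 8.03 CPM in controls (log2 fold change -0.14). Their edgeR adjusted p lay between 0.416 and 0.841. Col19a1 and Col22a1, the second a collagen of the muscle-tendon junction, had 2 to 9 and 2 to 6 counts per library and were not tested.

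Type VIII collagen, a short-chain network protein of vessel walls and of the cornea, had the largest log2 fold changes after Col14a1. Col8a1 had 59.9, 48.0 and 46.7 CPM in the inhibition grafts, against 15.8, 35.0 and 27.7 CPM in the control grafts (log2 fold change 0.98 ± 0.28, edgeR adjusted p = 0.226). All inhibition grafts stood above control 2, and control 1 was far below the others. The log2 fold change of Col8a1 was 0.30 with muscle level in the fit. Col8a2 was low throughout, with 11, 16 and 19 counts under inhibition and 2, 8 and 10 in controls (log2 fold change 1.13 ± 0.50, edgeR adjusted p = 0.320). Because it passed the count filter through the inhibition libraries, its difference was partly a condition of its being tested. Its log2 fold change was 0.72 without control 1 and 0.71 with muscle level in the fit. Col10a1, the short chain of growth plate cartilage, ranged from 1.29 to 2.24 CPM under inhibition and from 0.726 to 2.54 CPM in controls (log2 fold change 0.048 ± 0.45, edgeR adjusted p = 0.969).

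The multiplexins are basement membrane collagens that carry long sugar chains. Col15a1, found where basement membrane meets connective tissue around muscle fibres and capillaries, had 86.0, 74.5 and 71.3 CPM in the inhibition grafts, against 35.8, 58.5 and 54.6 CPM in the control grafts (log2 fold change 0.64 ± 0.18, edgeR adjusted p = 0.208). Col18a1, the precursor of endostatin, had 41.2, 37.1 and 47.4 CPM in the inhibition grafts, against 37.8, 35.9 and 44.0 CPM in the control grafts (log2 fold change 0.093 ± 0.12, edgeR adjusted p = 0.726). The groups were separate for Col15a1 and overlapped for Col18a1, whose log2 fold change ran from -0.019 without inhibition 3 to 0.18 without control 3. Col15a1 had a log2 fold change of 0.19 and Col18a1 of 0.35 when muscle level was in the fit. The difference between these 2 genes was not tested.

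The tested epithelial and transmembrane collagens overlapped between the groups. Col17a1, the hemidesmosome collagen that ties basal keratinocytes to their membrane, had 34.3, 31.8 and 22.1 CPM in the inhibition grafts, against 17.6, 27.4 and 18.4 CPM in the control grafts (log2 fold change 0.48 ± 0.22, edgeR adjusted p = 0.354). Col7a1, the anchoring fibril below it, had 3.43, 5.69 and 4.10 CPM in the inhibition grafts, against 2.53, 6.51 and 3.44 CPM in the control grafts (log2 fold change 0.095 ± 0.36, edgeR adjusted p = 0.918), highest in control 2 and inhibition 2, and its log2 fold change ran from -0.16 without control 1 to 0.54 without control 2. With muscle level in the fit, Col17a1 had a log2 fold change of -0.30 and Col7a1 of -0.74. Squamous epithelium genes were highest in inhibition 2, then in inhibition 1 and control 2. Their level was 1.04, 1.32 and 0.16 under inhibition and -0.44, 0.58 and -0.14 in controls (mean log2 CPM of 10 genes less the control mean). Of these genes 9 had a positive log2 fold change and 1, Krt14, a negative one (-0.23). The part of epithelium in the Col7a1 and Col17a1 values was not tested. Col13a1, which organises the synapse of nerve on muscle, had 1.40, 2.36 and 3.38 CPM in the inhibition grafts, against 2.17, 1.37 and 2.08 CPM in the control grafts (log2 fold change 0.36 ± 0.37, edgeR adjusted p = 0.666). The log2 fold change of Col13a1 was 0.0028 without inhibition 3, 0.16 without control 2, 0.60 without inhibition 1 and 1.33 with muscle level in the fit. Col23a1, another transmembrane chain, ranged from 2.24 to 2.46 CPM under inhibition and from 1.75 to 2.67 CPM in controls (log2 fold change 0.14 ± 0.28, edgeR adjusted p = 0.829). Col25a1, a further transmembrane chain, was below the filter and did not overlap, with 9, 8 and 7 counts under inhibition and 2, 1 and 4 in controls. Of the last 2 members, Col28a1, a chain of peripheral nerve, had 1.40, 0.974 and 1.19 CPM in the inhibition grafts, against 0.664, 0.846 and 0.823 CPM in the control grafts (log2 fold change 0.60 ± 0.34, edgeR adjusted p = 0.424), with no overlap. Col26a1 had 0 to 2 counts per library.

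Several members are neighbours in the genome. Col3a1 and Col5a2 lie tail to tail on chromosome 1, 24614 bases apart, with log2 fold changes of 0.72 and 0.51. Col6a2 and Col6a1 follow each other on chromosome 10, 85161 bases apart (0.76 and 0.69). Col9a1 lies 9205 bases from the untested Col19a1, and the barely detected Col6a4, Col6a5 and Col6a6 lie in a row on chromosome 9. Exons of 13 of the 44 members overlap those of another gene, by 6.07% of exon length in Col9a3 (with Tcfl5 on the opposite strand), 5.65% in Col4a3 and under 2% for each other pair of genes, with 2 such partners each for Col4a2, Col5a1 and Col6a4, so reads there are uncertain because the rule for counting them is not given in the sources used here.

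Genes that modify newly made chains were lower rather than higher where they passed an unadjusted p under 0.05, with the exception of Colgalt2, named after its value was seen. Of 15 hydroxylation and glycosylation genes, all tested, edgeR called 0 and DESeq2 called 1 lower, where DESeq2 called 1.17% of all genes lower. At that threshold 6 of 15 were lower and 1 higher, against 7.00% lower and 8.36% higher among all genes tested, and the median log2 fold change was -0.21. The 1 higher gene, Colgalt2, had 12, 24 and 21 counts under inhibition and 8, 11 and 10 in controls. Its controls 1 and 3 lay below the 0.56 CPM of the count filter, which every inhibition library passed. Its difference was therefore partly a condition of its being tested. P4hb, the shared subunit of prolyl 4-hydroxylase and a disulphide isomerase, had 927, 1099 and 981 CPM in the inhibition grafts, against 1305, 1226 and 1242 CPM in the control grafts (log2 fold change -0.33 ± 0.082, edgeR adjusted p = 0.172), and it was the gene that DESeq2 called (adjusted p = 0.0109). Ppib, a prolyl isomerase of the complex that hydroxylates proline at the 3 position, had 80.7, 91.7 and 85.2 CPM in the inhibition grafts, against 103, 103 and 107 CPM in the control grafts (log2 fold change -0.28 ± 0.072, edgeR adjusted p = 0.178). P3h3, of the prolyl 3-hydroxylase family, had 102, 118 and 105 CPM in the inhibition grafts, against 154, 131 and 126 CPM in the control grafts (log2 fold change -0.34 ± 0.095, edgeR adjusted p = 0.186). In these 3 genes every inhibition graft lay below every control. All cells that secrete protein use P4hb and Ppib; which cells of the graft gave these values was not tested.

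Of 10 folding and export genes, all tested, edgeR and DESeq2 called 0. An unadjusted p under 0.05 was reached by 4 that were lower and 0 that were higher, against the same 7.00% and 8.36% of all genes, and the median log2 fold change was -0.13. Mia2 and Mia3, which load procollagen into export vesicles, had log2 fold changes of -0.27 ± 0.097 and -0.16 ± 0.063 (standard errors; edgeR adjusted p = 0.247 and 0.286), and Fkbp14, a prolyl isomerase, -0.28 ± 0.11 (edgeR adjusted p = 0.273). Serpinh1, the collagen chaperone HSP47 and the most abundant gene of the list, chosen after its values were seen, had 1007, 1201 and 865 CPM in the inhibition grafts, against 678, 878 and 945 CPM in the control grafts (log2 fold change 0.30 ± 0.15, edgeR adjusted p = 0.397), with inhibition 3 below controls 2 and 3.

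Of 5 lysyl oxidase genes, all tested, edgeR called 0 and DESeq2 called 1 higher. By edgeR 2 were higher and 0 lower with an unadjusted p under 0.05, and the median was 0.045. Among all genes tested 8.36% were higher and 7.00% lower at that threshold, and DESeq2 called 2.20% higher. Loxl1, best known for elastic fibres, had 49.8, 46.1 and 34.2 CPM in the inhibition grafts, against 15.99, 28.9 and 25.5 CPM in the control grafts (log2 fold change 0.88 ± 0.24, edgeR adjusted p = 0.203; DESeq2 adjusted p = 0.00314). Lox, which cross-links collagen and elastin, had 64.0, 71.0 and 56.7 CPM in the inhibition grafts, against 28.1, 46.8 and 51.0 CPM in the control grafts (log2 fold change 0.60 ± 0.22, edgeR adjusted p = 0.275). Both were separate between the groups, whereas Loxl2, Loxl3 and Loxl4 overlapped, Loxl4 with a log2 fold change of -0.13 ± 0.33 (edgeR adjusted p = 0.872) that was 0.073 without inhibition 3. Of 8 propeptide processing genes 6 were tested and 0 called by edgeR or DESeq2, and the median was 0.24. Where p without adjustment was under 0.05, 2 were higher and 1 lower, against the same 8.36% and 7.00% of all genes. Tll1, a tolloid-like proteinase, had 0.88 ± 0.34, Pcolce2, an enhancer of procollagen C-proteinase, 0.86 ± 0.34, and Adamts14, an N-proteinase, -0.40 ± 0.17 (log2 fold changes and standard errors; edgeR adjusted p = 0.273, 0.281 and 0.319).

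Among 10 genes that bind or take up collagen, 9 were tested, edgeR called 0 and DESeq2 called 1 higher. The unadjusted p was under 0.05 for 2 that were higher and 0 that were lower (median 0.18). Over all genes tested these shares were 8.36% and 7.00%, and DESeq2 called 2.20% higher. Mrc2, the endocytic collagen receptor of fibroblasts, had 25.1, 23.3 and 22.7 CPM in the inhibition grafts, against 9.53, 15.9 and 14.4 CPM in the control grafts (log2 fold change 0.83 ± 0.18, edgeR adjusted p = 0.160; DESeq2 adjusted p = 0.00237). Its groups did not overlap. Itga11, the collagen-binding integrin chain of fibroblasts, had 1.47, 1.69 and 1.52 CPM in the inhibition grafts, against 0.966, 1.11 and 0.339 CPM in the control grafts (log2 fold change 0.99 ± 0.43, edgeR adjusted p = 0.318). Its control 3, at 7 counts, lay below the 0.56 CPM of the count filter, which every inhibition library passed. Itgb1, the beta chain that all collagen-binding integrins share and that most cells make, had 628, 618 and 628 CPM in the inhibition grafts, against 725, 674 and 665 CPM in the control grafts (log2 fold change -0.14 ± 0.068, edgeR adjusted p = 0.360). The platelet receptor gene Gp6 was at 0 counts in all libraries.

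With muscle level in the fit, the log2 fold changes were 0.16 for Loxl1, 0.16 for Lox, 0.39 for Tll1, 0.12 for Pcolce2, -0.036 for Adamts14, 0.43 for Mrc2, 0.64 for Itga11, -0.083 for Itgb1, -0.44 for Fkbp14 and -0.17 for Mia2. That of Lox was 0.38 without control 1, that of Itga11 0.59 without control 3 and that of Adamts14 -0.62 without inhibition 3.

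**Figure D4:**
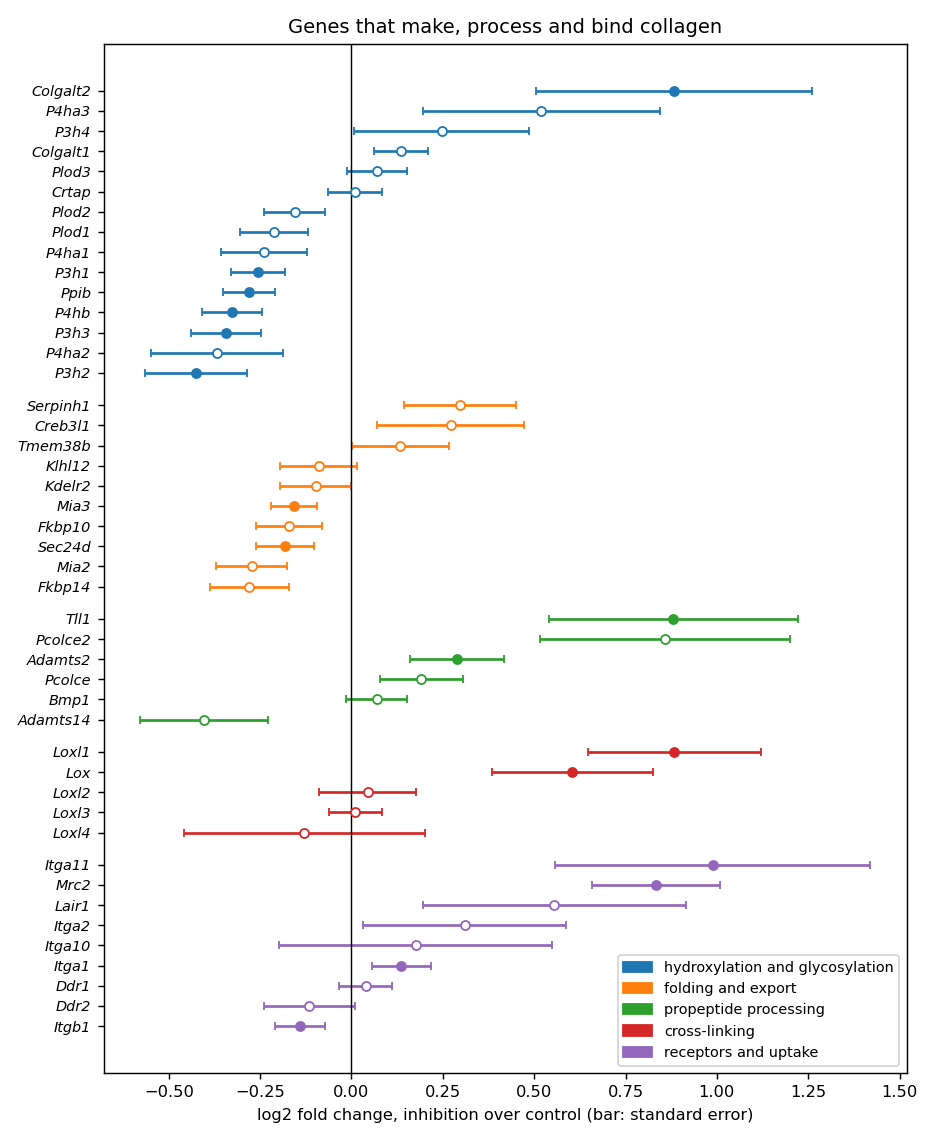
Log2 fold change of inhibition over control (horizontal axis) for the tested genes of 5 collagen pathway lists; bars are standard errors from edgeR, and filled points mark genes whose groups did not overlap. Modifying enzymes and export genes lie mostly left of 0, while Loxl1, Lox, Tll1, Mrc2 and Itga11 lie right of it.

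Marker genes of stroma and muscle differed between the grafts beside the collagens. Of 14 non-collagen fibroblast markers 12 were tested, all with a positive log2 fold change (median 0.90, 9 at an unadjusted p under 0.05, 0 called by edgeR and 4 by DESeq2), and Tcf21 was at 0. Among all genes tested, 51.0% were positive, 8.36% were higher with an unadjusted p under 0.05 and 2.20% were called higher by DESeq2. Their summed level was 839.6, 783 and 567 CPM under inhibition and 297, 538 and 421 CPM in controls. Skeletal muscle markers summed to 3322, 3187 and 1957 CPM under inhibition and 762, 1707 and 1041 CPM in controls, with 15 of 15 tested genes positive. Endothelial markers summed to 288, 254 and 290.4 CPM under inhibition and 139.8, 222 and 223 CPM in controls, and 7 of 8 were positive. Pericyte and smooth muscle markers, 6 of 8 tested and all 6 positive (median 0.69, 5 with an unadjusted p under 0.05, 0 called by edgeR and 4 by DESeq2), summed to 509, 517 and 447 CPM under inhibition and 223, 335 and 298 CPM in controls, with no overlap. Most of the pericyte and smooth muscle sums came from Des, which skeletal muscle makes as well. Des had 338, 355 and 304 CPM under inhibition and 126, 221 and 186 CPM in controls. In the same list Cspg4 had a log2 fold change of 0.091 ± 0.10, and Tagln and Cnn1 were too low to test. Collagens summed to 2882, 2565 and 2542 CPM under inhibition and 1507, 2027 and 2140.2 CPM in controls.

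By mean level the lists did not rank the grafts alike. For non-collagen fibroblast markers, inhibition 3 had a mean level of 0.32 and control 2 of 0.49 (log2 CPM less the control mean). The mean level of the tested fibrillar collagens was 0.18, 0.38 and 0.37 under inhibition and -0.19, 0.11 and 0.083 in controls, without an overlap. This ranking depended on the summary. The fibrillar median level was 0.58, 0.58 and 0.39 under inhibition and -0.21, 0.12 and 0.095 in controls. The fibroblast median level was 1.07, 1.03 and 0.44 under inhibition and -0.42, 0.40 and 0.044 in controls. Fibrillar chains summed to 1552, 1422 and 1254 CPM under inhibition and 693, 1009 and 1025 CPM in controls. By median and by sum, neither list overlapped between the groups. Set against the fibroblast markers of the same library, the mean collagen level was -0.70, -0.77 and -0.00045 under inhibition and 0.18, -0.37 and 0.19 in controls (log2 differences). Type VI collagen less the same markers was -0.12, -0.54 and 0.41 under inhibition and -0.11, -0.36 and 0.46 in controls, with the groups intermixed. With the muscle level as a covariate the fibrillar median was 0.27 and the type VI median 0.46. That level was almost alike in inhibition 3 and control 2, but it followed the group in part. This fit can tell it apart from the group only in part. The part of each tissue in the collagen values was not tested beyond these figures.

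**Figure D5:**
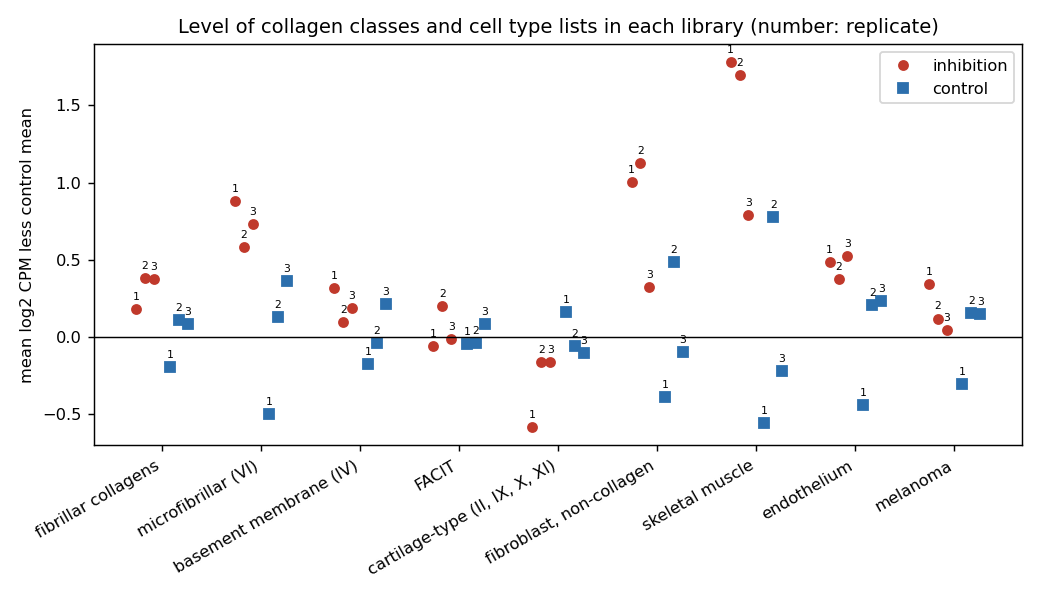
Mean log2 CPM of the tested genes of each collagen class and of 4 cell type lists, less the mean of the controls (vertical axis), for each library; circles are inhibition libraries on the left, squares controls on the right, and numbers give the replicate. Inhibition 1 and 2 lead the fibroblast and muscle lists, inhibition 3 lies below control 2 for fibroblast markers and level with it for muscle, and control 1 is the lowest library of 7 of the 9 groups drawn.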

How the data were processed

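RNA from 3 inhibition and 3 control grafts had been sequenced as libraries of mRNA, per the labels' protocols. The authors deposited whole-number read counts per Ensembl gene in 1 table with 1 column per library, with no normalization. HISAT2 2.0 and mm10 are named per the submitters' processing notes, and the counting program, annotation release and strand setting are not given in the sources used here. The deposited column names speak of denervation and the titles of inhibition; columns were matched by number within each group, and 0 columns were left unused. Symbols, exon lengths and coordinates came from GENCODE M21 on GRCm38, which named 55227 of 55487 genes, and promoter windows from RefSeq on GRCm38.p6.

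Genes were kept with filterByExpr (count minimum 10, total minimum 15; 15666 genes) and scaled by TMM. CPM values are counts scaled to library size with the TMM factors, and 1 count was worth 0.0476 to 0.0701 CPM by library. Groups were compared in R 4.3.3 with edgeR 4.0.16 (quasi-likelihood fit, robust, 3 against 3, Benjamini-Hochberg adjusted over all genes, threshold 0.05), checked on simulated counts. Standard errors were taken as the fold change on the log2 scale over the root of its F statistic. Alternatives were DESeq2 1.42.0, limma 3.58.1 (voom), other scalings and filters, a muscle covariate, a replicate block and each library left out. The 6 ratios within libraries were compared by two-sided exact permutation in SciPy 1.17.1.

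The members and lists were chosen with earlier results of these data known. Values in every library are given for members among the 10 highest per kilobase, with an unadjusted p under 0.05, or among the 2 smallest p of their class, and for pathway lists, the 3 genes of smallest p are named.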

Additional observations from a re-analysis of the deposited data

How the results depend on the processing

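Without a filter on low counts edgeR called 1187 of all genes, 11 collagens and 10 pathway genes, and DESeq2 called 527, 10 and 3, against 6, 0 and 0 as reported. Limma-voom and the fit with muscle level called 0 of all genes, with an unadjusted p under 0.05 for 1286 higher and 1043 lower genes by limma-voom and 188 higher and 312 lower genes with muscle level. A threshold of 0.1 for the adjusted p gave 1 collagen. The samples share only a number: the same-numbered libraries' deviations correlated at -0.18, 0.33 and 0.087, and with the replicate block edgeR called 14 genes and 0 collagens, 17 collagens having an unadjusted p under 0.05. With muscle level in the fit, 2 collagens had an unadjusted p under 0.05, the fibrillar median was 0.27 and the FACIT median 0.014, and the log2 fold changes of Col7a1, Col14a1 and Col17a1 changed sign, to -0.74, -0.027 and -0.30; others became smaller (Col5a2 0.0045, Col3a1 0.21, Col8a1 0.30, Col15a1 0.19) or larger (Col13a1 1.33), and the cause was not tested. With single libraries left out, calls ran from 0 to 217 over all genes, where the highest was without inhibition 3, from 0 to 3 over collagens and from 0 to 0 over the pathway lists, and 10 to 17 collagens had an unadjusted p under 0.05. Medians then ran from 0.21 to 0.44 for all collagens, 0.37 to 0.60 for fibrillar, 0.12 to 0.38 for basement membrane, 0.47 to 0.87 for type VI and -0.26 to -0.11 for FACIT chains. Log2 fold changes ran from -0.16 to 0.54 for Col7a1, -0.019 to 0.18 for Col18a1 and -0.45 to 0.073 for Loxl4, and the Col5a1 to Col1a1 difference from -0.030 to 0.097. Of the alternative values of 38 named genes, 9 changed sign, in 5 genes, 34 moved past the threshold, in 21 genes, and 525 did neither. The 10 untested members, at 16 counts or fewer in each library, lay below what this depth can compare.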
